A study of Homo sapiens with 6 samples.

Results

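Messenger RNA of 10 genes of the unfolded protein response (UPR) was followed in the human fibrosarcoma cell line HT-1080 with and without an inhibitor, per the series text, of the kinase IRAK4. The genes were taken by symbol from the count tables, 10 of 20683 symbols, and fall into 3 regulators (XBP1, ERN1 and ATF6), 4 genes of ER-associated degradation (ERAD; HERPUD1, SYVN1, SEL1L and EDEM1) and 3 lumenal chaperone genes (HSPA5, DNAJB9 and SDF2L1). All 10 passed the filter on low counts. Cells of the inhibitor group had the compound SLV-8472-01 for 4 h, at a labelled dose of 5 mM that may be that of a stock. Cells of the control group had 0.1% DMSO for 4 h. Each group had 3 libraries, described as biological replicates of this single line. The assay, an Ion AmpliSeq Transcriptome panel read on an Ion Proton, amplifies by PCR a stretch of each transcript it targets, so levels are compared between libraries and not between genes.

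The UPR answers misfolded protein in the endoplasmic reticulum (ER). Its sensors are IRE1, encoded by ERN1, the kinase PERK, encoded by EIF2AK3, and ATF6, which is cut in the Golgi to release a transcription factor. Active IRE1 cuts a short intron out of XBP1 mRNA in the cytosol, and only the spliced mRNA encodes the potent transcription factor. XBP1 and ATF6 raise chaperones that fold proteins in the ER lumen and ERAD factors that send misfolded proteins to the proteasome.

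With the inhibitor, 7 of the 10 genes rose and 0 fell: XBP1, ERN1, ATF6, HERPUD1, SYVN1, SEL1L and DNAJB9. Of all 11391 genes tested, 20.2% changed, 9.92% rose and 10.3% fell (edgeR quasi-likelihood test, Benjamini-Hochberg adjusted p under 0.05). In such bulk samples a change in the cells present and a change in RNA per cell cannot be told apart. The regulators and ERAD genes accounted for 6 of the rises, out of 7 genes with a median log2 fold change of 0.692. Taken apart, the median was 1.02 for the 3 regulators and 0.61 for the 4 ERAD genes. Of the chaperone genes, 1 of 3 rose, with a median of 0.484. HSPA5 (0.484) and DNAJB9 (0.565) had larger log2 fold changes than the regulator ATF6 (0.403). The median over all genes tested was 0.00344. The same 7 genes were those whose inhibitor libraries all lay above the DMSO libraries, an order found for 17.7% of all genes tested. Groups without overlap in either direction were found for 36.3% of all genes, and inhibitor libraries all below the DMSO libraries for 18.7% of all genes and for 0 of the 10. The members were chosen with earlier results of these data known, so these counts are descriptions.

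Inhibitor libraries held 7644478 to 11427779 counts and DMSO libraries 12003104 to 15336351. Mesenchymal markers had a summed level of 5550 to 7620 counts per 1000000 with TMM scaling (CPM) in inhibitor libraries. The sum was 5540 to 6570 CPM in DMSO libraries. Most of the summed counts were of VIM, with a mean of 6019 CPM with the inhibitor and 5648 CPM with DMSO. Few counts were read for COL1A1 (14.2 and 11.7 CPM), COL1A2 (2.70 and 2.04 CPM) and S100A4 (2.42 and 2.25 CPM), which on this panel does not rank genes by level. Of these markers, 1 of 6 tested, FN1, rose. THY1 of that list was at or near 0. Of 6 epithelial markers, CDH1 had no count and EPCAM was at or near 0 while KRT8 and KRT18 were expressed, and 0 of 3 tested changed (unadjusted p of 0.178 for CLDN4, the lowest). The epithelial sum was 236 to 288 CPM in inhibitor libraries and 253 to 278 CPM in DMSO libraries. Blood markers summed to at most 0.218 CPM in any inhibitor library and 0.0637 CPM in any DMSO library, with 3 of 5 genes, among them PTPRC, at 0 counts throughout. Endothelial markers summed to 1.07 to 1.31 CPM with the inhibitor and 0.955 to 1.49 CPM with DMSO.

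**Figure D1:**
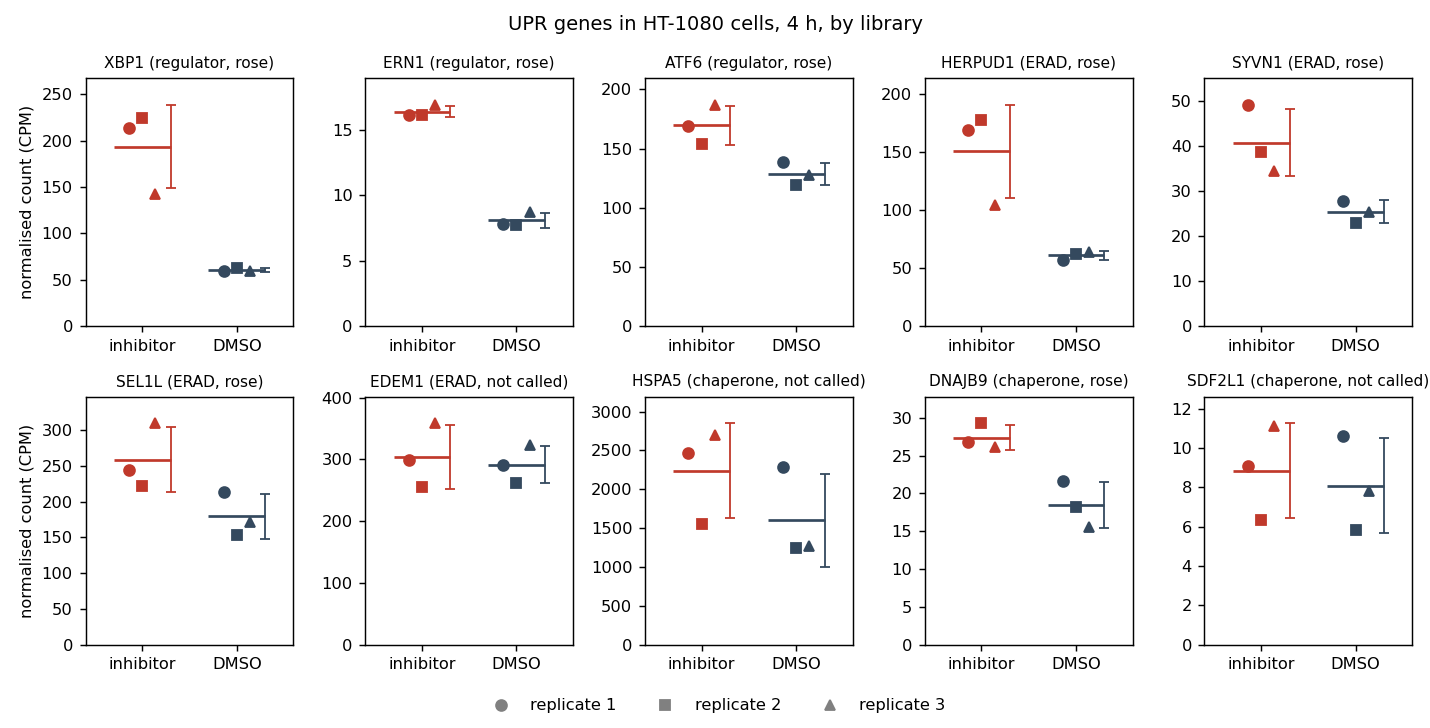
Normalised counts (CPM, y axis from 0, a scale per gene) of the 10 UPR genes in the 3 inhibitor libraries and the 3 DMSO libraries. Marker shapes give the replicate, lines the mean and whiskers the SD. Inhibitor libraries lie above all DMSO libraries for 7 genes and overlap with them for EDEM1, HSPA5 and SDF2L1.

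XBP1, the transcription factor made from the mRNA that IRE1 splices, rose most. Its normalised counts were 214, 225 and 142 CPM in inhibitor replicates 1 to 3, against 59.6, 63.0 and 59.1 CPM in DMSO replicates 1 to 3. The groups lay far apart, and inhibitor replicate 3 was the low library of its group. The log2 fold change was 1.68 ± 0.13 (SE), a 3.2-fold rise (edgeR adjusted p = 7.50e-09), and it ran from 1.56 to 1.86 when single libraries were left out. The SD was 23.2% of the mean with the inhibitor and 3.51% with DMSO. A count of XBP1 does not tell the spliced from the unspliced mRNA. The stretch that IRE1 removes is shown here because its loss, and not the amount of XBP1 mRNA, marks IRE1 activity. It is the run of 26 bases in capitals, within exon 4 of transcript XBP1-201 of GENCODE 29 (GRCh38, minus strand, chr22:28796127-28796152), and transcripts XBP1-202 and XBP1-207 are annotated without a stretch of this length here. Repeated letters at its ends leave the exact edges of that gap ambiguous, and they were set at the known cut sites of IRE1, between CNG and CAG.
XBP1 intron with 30 bases on each side, chr22:28796097-28796182: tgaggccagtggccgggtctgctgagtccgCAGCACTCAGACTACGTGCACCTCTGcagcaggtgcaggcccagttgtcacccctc

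ERN1, the gene of the sensor IRE1, had 16.1, 16.1 and 16.9 CPM in inhibitor libraries, against 7.77, 7.75 and 8.73 CPM in DMSO libraries. The groups did not overlap and each was tight. This was a 2.03-fold rise (log2 fold change 1.02 ± 0.15, SE, edgeR adjusted p = 3.32e-05). Counts of ERN1 were few, with 126 to 180 in inhibitor libraries and 105 to 122 in DMSO libraries. ATF6, the sensor that is itself a membrane-bound transcription factor, had 169, 154 and 187 CPM with the inhibitor and 138, 119.5 and 127 CPM with DMSO. The groups did not overlap, but the lowest inhibitor library lay close to the highest DMSO library. Its log2 fold change was 0.40 ± 0.11 (SE, edgeR adjusted p = 0.0096). That call was lost without DMSO replicate 2 (adjusted p = 0.0714) and when edgeR tested against a fold of 1.2 (0.209), within a range of 0.00375 to 0.209 over the alternatives.

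Of the ERAD genes, HERPUD1 rose most. It encodes a membrane protein of the ubiquitin ligase complex that moves misfolded proteins out of the ER. It had 169.7, 178 and 105 CPM in inhibitor libraries, against 56.9, 61.9 and 64.1 CPM in DMSO libraries. As for XBP1, inhibitor replicate 3 was the low library of its group and still lay above every DMSO library. The log2 fold change was 1.31 ± 0.14 (SE), a 2.48-fold rise (edgeR adjusted p = 9.25e-07). SYVN1, which encodes the ubiquitin ligase HRD1 at the centre of that complex, had 49.1, 38.6 and 34.6 CPM with the inhibitor and 27.9, 22.8 and 25.4 CPM with DMSO. Its groups did not overlap, and its log2 fold change was 0.69 ± 0.13 (SE, edgeR adjusted p = 0.000787). SEL1L, the partner that holds HRD1 in place and passes substrates to it, had 245, 222 and 309.8 CPM with the inhibitor and 213, 153 and 171 CPM with DMSO. Here inhibitor replicate 3 was the highest library and inhibitor replicate 2 lay just above DMSO replicate 1. The log2 fold change of SEL1L was 0.53 ± 0.13 (SE, edgeR adjusted p = 0.00559). Its call was lost without DMSO replicate 2 (adjusted p = 0.0594) and in the test against a fold of 1.2 (0.0746), within a range of 7.08e-05 to 0.0746 over the alternatives. The low end of that range came without the count filter.

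EDEM1, a mannosidase-like protein that picks out misfolded glycoproteins for ERAD and is a known target of XBP1, was not called. It had 299.6, 255 and 358 CPM in inhibitor libraries, against 290.3, 262 and 323 CPM in DMSO libraries. The groups overlapped fully, and inhibitor replicate 2 was the lowest of all 6 libraries. The log2 fold change was 0.06 with a 95% interval of -0.18 to 0.30 (edgeR adjusted p = 0.761), which leaves out a rise of the size seen for HERPUD1 or SYVN1. The sign of this value turned with library totals as the scaling and without inhibitor replicate 3 or DMSO replicate 2.

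**Figure D2:**
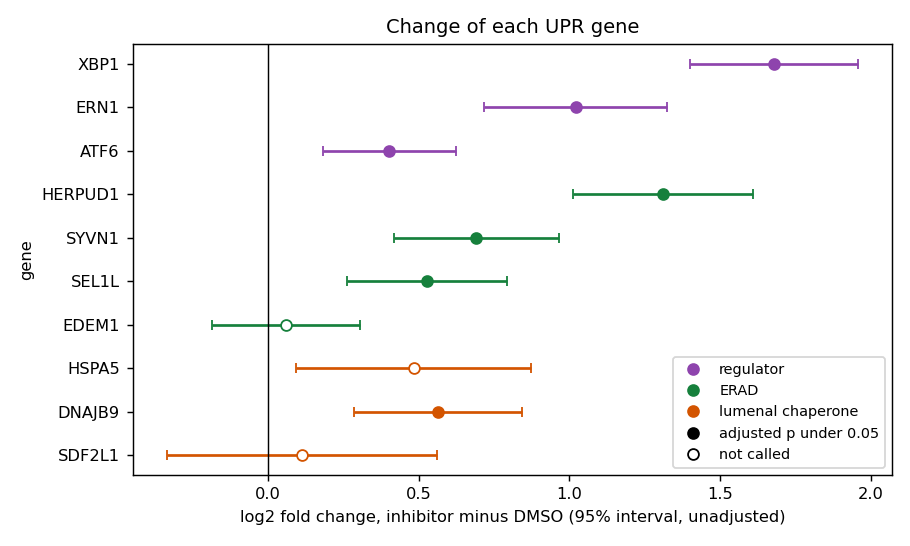
log2 fold change, inhibitor minus DMSO (x axis), of the 10 UPR genes in rows by role, with unadjusted 95% intervals. Filled points passed the edgeR test at an adjusted p under 0.05. XBP1, HERPUD1 and ERN1 lie above 1, and the intervals of EDEM1 and SDF2L1 span 0.

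Of the chaperone genes, only DNAJB9 was called. HSPA5, which encodes BiP, the main HSP70 chaperone of the ER lumen and a classical readout of the UPR, had 2469.7, 1547 and 2697 CPM in inhibitor libraries. DMSO libraries had 2291, 1239 and 1269 CPM. Inhibitor replicate 2 lay below DMSO replicate 1, so the groups overlapped. The SD was 27.2% of the mean with the inhibitor and 37.4% with DMSO. The log2 fold change was 0.48 with an unadjusted 95% interval of 0.095 to 0.873, and HSPA5 was not called (edgeR adjusted p = 0.0729). It passed without DMSO replicate 1 (log2 fold change 0.83, adjusted p = 0.00131), without inhibitor replicate 2 (0.69, adjusted p = 0.0122) and without the count filter (adjusted p = 0.000163). Without the filter the log2 fold change hardly moved (0.467), but the SE was 0.104, against 0.188 with the filter. That low p thus came with a smaller SE and not with a larger change. Over all alternatives the adjusted p of HSPA5 ran from 0.000163 to 0.424. The upper end of the interval lies below the lower end of that of XBP1, 1.40. The interval contains the log2 fold changes of SYVN1 (0.69), DNAJB9 (0.56), SEL1L (0.53), ATF6 (0.40) and SDF2L1 (0.11). Those of XBP1, HERPUD1 and ERN1 lay above it and that of EDEM1 below it.

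DNAJB9, which encodes ERdj4, a J-domain partner of BiP with a role in ERAD, rose. It had 26.8, 29.3 and 26.1 CPM in inhibitor libraries, against 21.7, 18.1 and 15.5 CPM in DMSO libraries, without overlap. The log2 fold change was 0.56 ± 0.13 (SE, edgeR adjusted p = 0.0049). The call was lost in the test against a fold of 1.2 (adjusted p = 0.0573). Over the alternatives the adjusted p ran from 0.000984, without the count filter, to 0.0573. SDF2L1, a lumenal protein that works with J-domain cochaperones of BiP, had 9.06, 6.31 and 11.1 CPM with the inhibitor and 10.6, 5.81 and 7.81 CPM with DMSO. The groups overlapped. SDF2L1 had 58 to 101 counts in inhibitor libraries and 90 to 167 in DMSO libraries. Its SD was 27.3% of the mean with the inhibitor and 29.9% with DMSO. ERN1, also with few counts, had 2.69% and 6.93%. The 95% interval of SDF2L1, -0.33 to 0.56 around a log2 fold change of 0.11, is wide (edgeR adjusted p = 0.755).

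To set regulators and ERAD genes against a lumenal chaperone without any library scaling, counts were expressed per 1000 counts of HSPA5 in the same library. XBP1 had 86.6, 145.5 and 52.8 in inhibitor libraries, against 26.0, 50.9 and 46.6 in DMSO libraries. These groups did not overlap, though inhibitor replicate 3 lay close to DMSO replicate 2. HERPUD1 had 68.7, 115 and 38.8 per 1000 HSPA5 counts in inhibitor libraries, against 24.8, 49.97 and 50.5 in DMSO libraries, and these groups overlapped. Of the 9 genes set against HSPA5, XBP1 alone had every inhibitor library above the DMSO libraries and SDF2L1 alone had every one below, while 7 overlapped. The difference in mean log2 ratio, inhibitor minus DMSO, was 1.14 for XBP1, 0.764 for HERPUD1, 0.516 for ERN1, 0.168 for SYVN1, 0.0759 for DNAJB9 and 0.0237 for SEL1L. It was -0.103 for ATF6, -0.373 for SDF2L1 and -0.453 for EDEM1. These ratios carry the spread of HSPA5 itself and were not tested.

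The libraries that were high or low differed between the genes. XBP1 and HERPUD1 were highest in inhibitor replicate 2 and lowest of the inhibitor libraries in replicate 3. HSPA5 had the opposite order, lowest in inhibitor replicate 2 and highest in replicate 3. By the smallest root mean square difference of centred log2 CPM over the 6 libraries, among 7951 genes with at least 10 CPM, the genes nearest XBP1 were SIK1 (0.139), HERPUD1 (0.201), IL12A (0.205), KRTAP2-3 (0.216) and GDF15 (0.216). The genes nearest HSPA5 were HYOU1 (0.137) and DNAJB11 (0.170), both of which work with BiP in the ER lumen, followed by PDE2A (0.204), EML2 (0.215) and ARG2 (0.218). Each of the 5 genes nearest XBP1 rose, likeness and change being read from the same libraries, with log2 fold changes of 1.31 to 1.75. Of those nearest HSPA5, HYOU1 (0.57 ± 0.15, SE) and EML2 (0.51 ± 0.14, SE) rose. HYOU1 had 694, 540.3 and 828 CPM in inhibitor libraries, against 595, 384 and 409.8 CPM in DMSO libraries. DNAJB11 had 444, 255 and 418 CPM with the inhibitor and 363, 257 and 261 CPM with DMSO. HYOU1 ordered the 6 libraries as HSPA5 did. DNAJB11 did not, being highest in inhibitor replicate 1 and lowest of all in inhibitor replicate 2, but in both genes inhibitor replicate 2 lay below DMSO replicate 1. The lowest inhibitor library was replicate 2 and the highest DMSO library replicate 1 for 9.97% of all genes tested. The same held for 4 of the 10 genes. In the lists described further on, it held for 11 of 30 other chaperone and folding genes and 9 of 31 other ERAD genes. It held for 6 of 24 translocation genes and 5 of 19 ER export genes. In the remaining lists it held for 1 of 14 other sensors and processing factors, 1 of 5 PERK arm genes and 1 of 7 mRNAs described as cut by IRE1. This pattern was chosen after the values were seen.

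**Figure D3:**
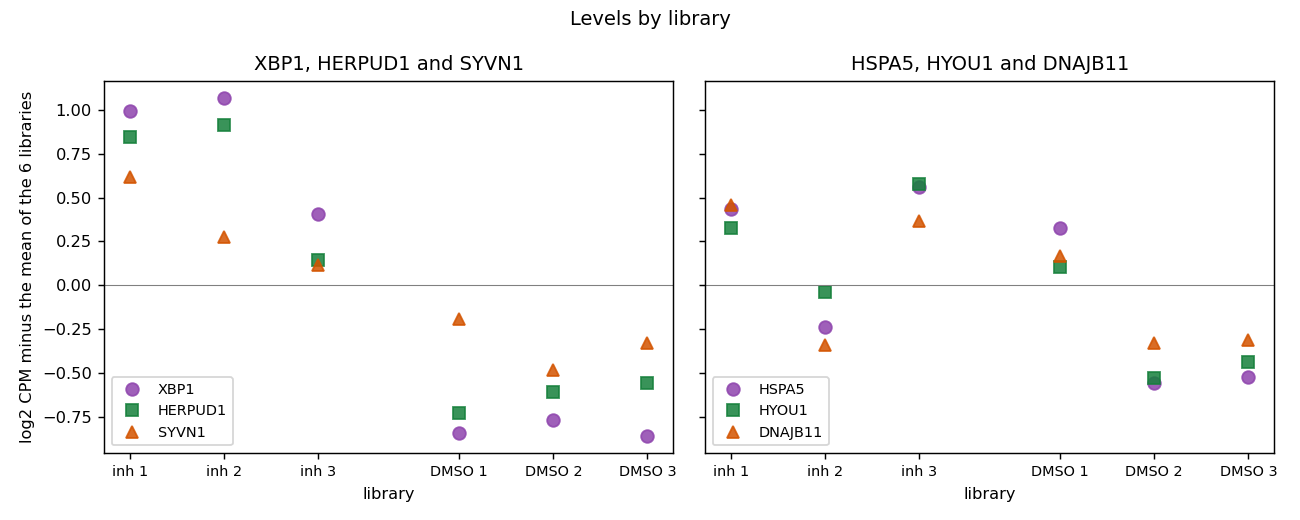
log2 CPM minus the mean of the 6 libraries (y axis) by library (x axis), inhibitor libraries left. XBP1, HERPUD1 and SYVN1 (left) separate the groups, with inhibitor replicate 3 the lowest of its group. HSPA5, HYOU1 and DNAJB11 (right) are low in inhibitor replicate 2 and high in DMSO replicate 1, and their groups overlap.

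XBP1 and ATF6 act through known promoter elements, so the promoters of the 10 genes were read. RefSeq windows (GRCh38.p14) of 300 bases, from 250 before to 50 after the start, matched all 10 genes by symbol, with 11 windows in all. Both strands were searched for the ER stress response element ERSE (CCAAT, any 9 bases, CCACG, bound by NF-Y with ATF6 or XBP1), ERSE-II (ATTGG, any 1 base, CCACG), the UPRE core (TGACGTGG) and the core of the CARE element that ATF4 binds with C/EBP proteins (TGATGNAA). The ERSE letters occur in 0.0769% of 35116 windows of all genes, ERSE-II in 0.0541%, the UPRE core in 0.729% and the CARE core in 3.62%. ERSE was found in XBP1, 52 to 34 bases before the start, and in HSPA5, 66 to 48 bases before it. ERSE-II was found in HERPUD1 and SDF2L1, the CARE core in HERPUD1 and the UPRE core in none of the 11 windows. The motifs did not overlap each other in these windows, and the same matches were found in the 200 bases before the start. The 4 windows with a match are shown 5′ to 3′ with the matched letters in capitals, to set XBP1 and HERPUD1, which rose, beside HSPA5 and SDF2L1, which were not called.
XBP1 promoter, chr22:28800520-28800819, minus strand: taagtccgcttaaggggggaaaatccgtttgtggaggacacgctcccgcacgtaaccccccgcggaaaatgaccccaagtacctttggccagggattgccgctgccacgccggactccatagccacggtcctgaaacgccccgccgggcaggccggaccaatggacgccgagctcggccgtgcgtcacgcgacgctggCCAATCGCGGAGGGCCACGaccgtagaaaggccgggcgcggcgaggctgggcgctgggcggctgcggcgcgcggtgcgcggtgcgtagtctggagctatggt
HERPUD1 promoter, chr16:56931892-56932191, plus strand: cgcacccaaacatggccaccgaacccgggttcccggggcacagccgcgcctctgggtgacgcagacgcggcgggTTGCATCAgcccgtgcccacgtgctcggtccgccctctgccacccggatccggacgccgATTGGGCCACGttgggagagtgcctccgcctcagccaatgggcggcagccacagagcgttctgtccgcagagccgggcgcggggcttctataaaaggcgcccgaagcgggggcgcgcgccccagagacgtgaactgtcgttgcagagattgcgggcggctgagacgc
HSPA5 promoter, chr9:125241294-125241593, minus strand: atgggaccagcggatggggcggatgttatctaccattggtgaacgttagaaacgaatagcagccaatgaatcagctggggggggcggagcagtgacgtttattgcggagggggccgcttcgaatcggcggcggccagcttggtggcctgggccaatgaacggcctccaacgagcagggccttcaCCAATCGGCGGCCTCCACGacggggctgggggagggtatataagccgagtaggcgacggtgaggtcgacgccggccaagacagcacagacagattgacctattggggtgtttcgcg
SDF2L1 promoter, chr22:21642052-21642351, plus strand: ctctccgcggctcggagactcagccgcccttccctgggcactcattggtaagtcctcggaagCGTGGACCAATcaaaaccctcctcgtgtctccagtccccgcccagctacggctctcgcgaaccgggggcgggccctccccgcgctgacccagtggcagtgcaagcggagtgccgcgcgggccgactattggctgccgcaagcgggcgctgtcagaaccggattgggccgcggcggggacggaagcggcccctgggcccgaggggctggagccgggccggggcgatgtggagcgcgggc
In the HERPUD1 window the first run of capitals is the CARE core, on the minus strand, and the second is ERSE-II. In the SDF2L1 window ERSE-II is on the minus strand. ERSE is thus present in the gene with the largest rise and in HSPA5, and ERSE-II in HERPUD1 and in SDF2L1. A match of letters is not a shown binding site.

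Of 130 tested genes in 7 other UPR lists, 20.8% changed, against 20.2% of all genes tested, with a median log2 fold change of 0.0928. Those that rose numbered 21 (16.2%, against 9.92% of all genes tested). Those that fell numbered 6 of 130, a smaller share than the 10.3% of all genes tested (1168 of 11391). These lists too were written with earlier results known. Among 14 other sensors and processing factors, 4 rose and 1 fell (median 0.172). ATF6B, a relative of ATF6, rose by 0.56 ± 0.11 on the log2 scale (SE, edgeR adjusted p = 0.000753). NFE2L1, an ER-bound transcription factor that raises proteasome genes, rose by 0.51 ± 0.10. ZBTB17 (0.48 ± 0.11) and the ATF6-like factor CREB3L4 (0.49 ± 0.15, edgeR adjusted p = 0.0269) also rose, and the CREB3L4 call was lost when any of 5 libraries was left out (adjusted p up to 0.153). The gene that fell was RTCB, named after its value was seen, which encodes the ligase that rejoins cut XBP1 mRNA. It had 151 CPM with the inhibitor and 194 CPM with DMSO (log2 fold change -0.36 ± 0.10, SE, edgeR adjusted p = 0.0173). No gene of this list fell without inhibitor replicate 1, DMSO replicate 1 or DMSO replicate 3. EIF2AK3, the gene of PERK, likewise named after its value was seen, had 5.85 CPM with the inhibitor and 6.61 CPM with DMSO (edgeR adjusted p = 0.578).

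Of the output genes of the PERK arm, 5 of 5 tested rose, against 9.92% of all genes tested. Their median log2 fold change was 1.59. CHAC1, a glutathione-degrading enzyme, rose by 4.04 ± 0.20 and the pseudokinase gene TRIB3 by 2.25 ± 0.11 (SE). ATF4, the transcription factor of this arm, had 828 ± 110 CPM with the inhibitor and 275 ± 35.8 CPM with DMSO (SD, n = 3 each), and PPP1R15A, the phosphatase subunit that reverses the signal, rose by 0.78 ± 0.11. ATF4 is also made more of under other stresses through other eIF2alpha kinases. DDIT3, the gene of CHOP, and named although outside the rule, had 4, 6 and 5 counts in inhibitor libraries and 0, 1 and 5 in DMSO libraries, too few to test.

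Of 31 other ERAD genes tested, 5 rose, 3 fell and 23 were not called, with a median log2 fold change of 0.0248. The share that changed, 25.8%, was near the 20.2% of all genes tested. The largest rise was in SELENOS, a membrane selenoprotein that recruits the p97 ATPase to the ER, with 10.2 ± 1.71 CPM with the inhibitor and 4.07 ± 0.526 CPM with DMSO (SD, n = 3 each; log2 fold change 1.30 ± 0.19, SE, edgeR adjusted p = 3.48e-05). The largest fall was in UBE2G2, a ubiquitin-conjugating enzyme of ERAD, with 107 ± 7.39 CPM with the inhibitor and 188 ± 12.7 CPM with DMSO (log2 fold change -0.81 ± 0.10). TMEM129, a ubiquitin ligase, rose by 0.55 ± 0.14 and EDEM2, a relative of EDEM1, by 0.47 ± 0.12. TMEM129 was no longer called without inhibitor replicate 1 (adjusted p = 0.0925) or DMSO replicate 2 (0.0578). The number that rose was 2 without DMSO replicate 2 and 3 without DMSO replicate 3, and the number that fell was 1 without DMSO replicate 2 and 5 with library totals as the scaling.

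Of 30 other lumenal chaperones and folding enzymes tested, 3 rose, 0 fell and 27 were not called (median log2 fold change 0.176). The share that rose, 10%, was close to the 9.92% of all genes tested. Values were above 0 for 27 of the 30, against 17 of 31 other ERAD genes and 5739 of all 11391 genes tested. The other chaperones had a higher median than the other ERAD genes (0.0248). Among the 10 genes the order was reversed, with 0.61 for ERAD and 0.484 for chaperone genes. The genes that rose were HYOU1, an exchange factor of BiP, the lectin chaperone CALR (0.39 ± 0.11, SE, edgeR adjusted p = 0.0116) and ERP29 (0.38 ± 0.11, edgeR adjusted p = 0.0182). The HYOU1 call was lost with DESeq2 (adjusted p = 0.132) and without DMSO replicate 2 (0.0807) or replicate 3 (0.0584), that of CALR without DMSO replicate 2 (0.0845) and that of ERP29 without DMSO replicate 3 (0.134). With inhibitor replicate 3 left out 5 rose, with DMSO replicate 1 left out 6, and with either other DMSO replicate left out 1.

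**Figure D4:**
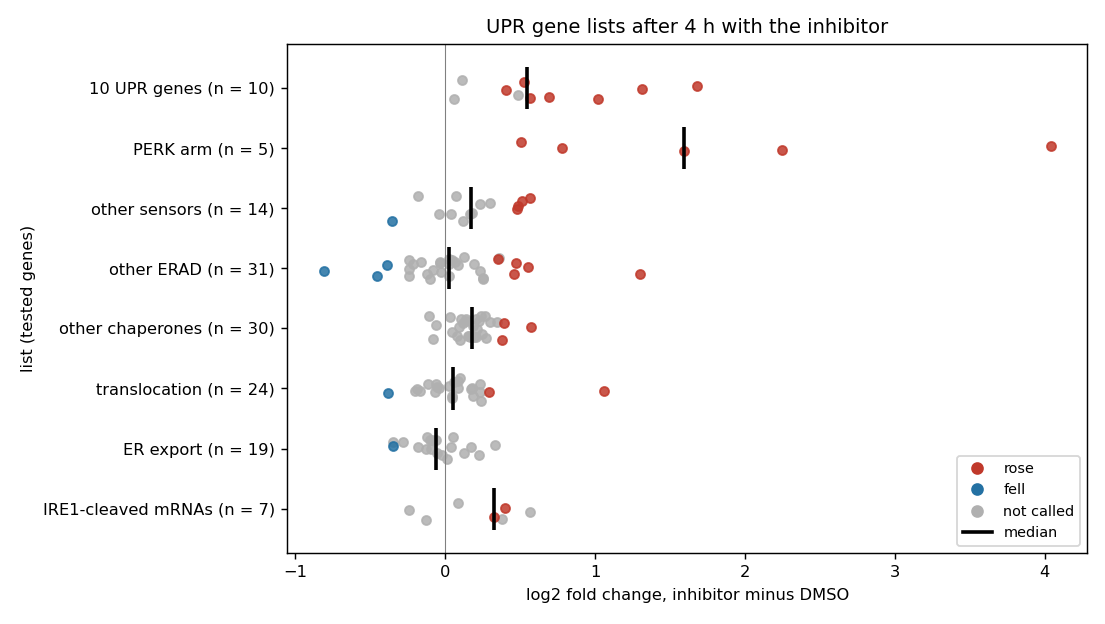
log2 fold change, inhibitor minus DMSO (x axis), of every tested gene in the 10 UPR genes and in 7 further lists (rows). Red points rose, blue points fell and grey points were not called by edgeR, and the bar is the median, 0.546 for the 10 genes, 1.59 for the PERK arm and 0.176 for other chaperones. Other ERAD genes spread to both sides of 0.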

How the data were processed

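RNA of HT-1080 cells was measured in 3 inhibitor and 3 DMSO libraries. The authors deposited 1 table per library of raw read counts by gene symbol. The submitters' processing notes name HTSeq, DESeq2 1.20.0 and hg19 but no role for them. Not given in the sources used here are aligner, annotation and strand. The 10 members and all lists were chosen with earlier results of these data known.

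Tests were run with edgeR 4.0.16 under R 4.3.3. Its filterByExpr kept 11391 of 20683 genes with 99.924% of the counts. TMM factors ran from 0.9735 to 0.9771 in inhibitor libraries and from 1.003 to 1.047 in DMSO libraries. Both these factors and the library totals were lower in every inhibitor library than in any DMSO library. Inhibitor was tested against DMSO with edgeR's quasi-likelihood test without covariates, and p was adjusted over all genes tested, with a call under 0.05. Rose and fell refer to such calls. CPM are counts per 1000000 with TMM scaling, and log2 CPM for profiles used a prior count of 2. Intervals of fold changes are at 95% and unadjusted, with the SE taken as the absolute fold change divided by the root of the F statistic. No 2 libraries of a group agreed within sampling noise (chi-square 9.32 to 14.7 per degree of freedom). Named genes are the 10 members, from each other list up to 4 called genes with the largest change or, with none called, 2 with the smallest p, and the 5 genes nearest XBP1 and HSPA5. Alternatives were DESeq2 size factors, library totals, no filter, at least 10 CPM, DESeq2 1.42.0, limma 3.58.1 voom, a replicate block, a test against a fold of 1.2, thinned libraries and each library left out. Sequences are from RefSeq and GENCODE on GRCh38.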

Additional observations from a re-analysis of the deposited data

How the results depend on the processing

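Calls of XBP1, ERN1, HERPUD1 and SYVN1 held under all 15 alternatives. Against a fold of 1.2, 829 genes, 4 of the 10 members and 8 genes of the other UPR lists passed. With single libraries left out, the counts ran from 1405 to 2246 genes, from 5 to 8 members and from 16 to 28 genes of the other lists, lowest without DMSO replicate 2 in each case. Values of uncalled members turned in sign: EDEM1 was at -0.0084 with library totals and ran from -0.0737 to 0.171 with single libraries left out, and SDF2L1 from -0.0895 to 0.371. The cause was not tested. With library totals the typical gene shifted by -0.0716 (log2, median), with 831 genes that rose and 1714 that fell. With the replicate number as a block, 2223 genes and 8 members changed, HSPA5 being added (adjusted p = 0.0173). Deviations of same-numbered libraries from their group means had correlations across genes of -0.0166 to 0.0317, so the numbers are not treated as pairs. Depth limits the precision for genes with few counts. For SDF2L1, with 58 to 167 counts, the libraries of a group also spread widely (SD 27.3% of the mean with the inhibitor and 29.9% with DMSO). DDIT3, with 0 to 6 counts per library, had too few to test.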

Other observations

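Genes that carry proteins into and out of the ER, which XBP1 is known to raise in secretory cells, are given with the share of all genes tested that changed, 20.2%. Of 24 tested genes of targeting, translocation and signal peptide cleavage, 2 rose and 1 fell (12.5% changed), with a median log2 fold change of 0.0523. SRP19, a protein of the signal recognition particle at 2.71 CPM with the inhibitor and 1.25 CPM with DMSO, rose by 1.06 ± 0.31 (SE, edgeR adjusted p = 0.0195). The receptor subunit gene SRPRA rose by 0.29 ± 0.10 (edgeR adjusted p = 0.0454) and SRP68 changed by -0.38 ± 0.11 (edgeR adjusted p = 0.0159). Each of these calls was lost without at least 2 of the libraries, with adjusted p up to 0.0984 for SRP19, 0.212 for SRPRA and 0.0804 for SRP68. Of 19 tested genes of ER export and retrieval, 0 rose and 1 fell (5.26% changed), with a median of -0.0624. That gene, SAR1A, the GTPase that starts COPII coats, had 96.6 CPM with the inhibitor and 122.9 CPM with DMSO (edgeR adjusted p = 0.0236), and its call was lost without any one of 3 libraries (adjusted p up to 0.126).

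Active IRE1 also cuts other mRNAs, a set described mostly in mouse cells. Of 7 such genes tested here, 2 rose and 0 fell (median log2 fold change 0.327), against 9.92% and 10.3% of all genes tested, so that few or no falls among 7 genes say little. These were the matrix genes SPARC (0.33 ± 0.10, SE, edgeR adjusted p = 0.0221) and COL6A1 (0.40 ± 0.11, edgeR adjusted p = 0.0139). The SPARC call was lost when any of 5 libraries was left out (adjusted p up to 0.0934) and that of COL6A1 when any of 3 was (up to 0.0926). BLOC1S1, named after its value was seen, had 39.5 CPM with the inhibitor and 30.5 CPM with DMSO (edgeR adjusted p = 0.125). With inhibitor replicate 1 or DMSO replicate 2 left out, 0 genes of this list rose, and with inhibitor replicate 3 left out, 4 rose.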
